A study of Mus musculus with 88 samples.

Results

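The effect of dietary probucol on heart gene expression was compared with chow in HET mice, which carry 1 working copy of Scarb1 (the gene of the scavenger receptor SR-BI) and lack apolipoprotein E. The comparison rested on 36 of the 88 arrays of the study. It set 8 hearts of probucol-fed HET mice (3 at 21 days of age, 3 at 31 days and 2 at 43 days) against 28 hearts of chow-fed HET mice (9, 10 and 9 at the same ages). The arrays were chosen by genotype and diet in the labels, and no expression value entered the choice. All 36 mice had the genotype SR-BI+/- apoE-/-, so the controls are not wild-type animals. Per the study's design text, each mouse had its own array, HET mice on chow show no detectable coronary artery disease, and they serve there as the controls of dKO mice, which lack both genes and develop myocardial infarction. The dose and the start of the probucol diet are not given in the sources used here. Whole hearts were measured, so fewer cells of a type and less RNA per cell cannot be told apart.

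Probucol is a lipid-soluble antioxidant drug that lowers plasma cholesterol, including that of high-density lipoprotein, and is carried within lipoproteins. SR-BI is the receptor through which the liver takes cholesterol from high-density lipoprotein, and apolipoprotein E directs remnant lipoproteins to receptors. Cells that hold excess cholesterol activate the nuclear receptor LXR through oxysterols, and LXR raises transporters such as Abca1 and Abcg1 and the lipid synthesis regulator Srebf1.

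The labels were checked first. Scarb1, the targeted gene on the array that was bright enough to test, lay at 7.09 to 7.67 log2 signal in the 8 probucol arrays and 6.95 to 8.16 in the 28 chow arrays, against 5.43 to 6.99 in the 52 dKO arrays, of which 1 exceeded the lowest HET array. For 1 dKO chow array (21 days, replicate 2) the description gives 31 days while its title and age field give 21, and it was kept at 21 days. The probe sets of Apoe were too dim to be tested. The 6 cardiomyocyte markers (Actc1, Mb, Myh6, Ryr2, Tnni3 and Tnnt2) were all bright, and their differences between diets ran from -0.11 to 0.16 with 0 past the threshold (0 at an unadjusted p under 0.05). Median array signals ranged from 30.1 to 75.9 in chow hearts and from 30.05 to 51.2 in probucol hearts. At 21, 31 and 43 days they were 30.05 to 39.3, 44.2 to 51.2 and 44.8 to 45.6 with probucol. With chow they were 30.1 to 52.2, 33.4 to 53.7 and 35.5 to 75.9. In an exact permutation test within age the diets did not separate on the median signal (p = 0.971), the Gapdh 3' to 5' ratio (p = 0.233), the actin 3' to 5' ratio (p = 0.21) or a score of the sex-linked genes Eif2s3y and Xist (p = 0.845), with adjusted values over these 4 measures of 0.466 or more. The test sums differences over the ages, so opposite shifts at different ages can cancel and balance within an age is not shown. By age, the sex score was above 0, the male side, in 0 of 3, 2 of 3 and 2 of 2 probucol hearts and in 4 of 9, 6 of 10 and 5 of 9 chow hearts. The arrays of the study fell into a larger and a smaller set on the second component of variation within groups. The smaller set held 11 of the 28 chow arrays (2, 6 and 3 by age) and 1 of the 8 probucol arrays, replicate 2 at 21 days, so the main calls were also fitted with this set as a block. On the first component 3 chow arrays stood apart from the rest (21 days replicate 2, 31 days replicate 7 and 43 days replicate 9) and 0 probucol arrays. Probucol replicate 3 at 21 days stood apart in its interferon-induced genes, as described with the 21-day results.

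With age as a covariate, 5 genes were higher and 37 lower with probucol among 5672 genes tested, at an adjusted p under 0.05 (limma, Benjamini-Hochberg), which is 0.0882% and 0.652% of the genes, or 0.74% together. At an unadjusted p under 0.05 the counts were 174 higher (3.07%) and 554 lower (9.77%), and the median difference over all genes was -0.05. The genes that rose were Apod, Cfp, Abca1, Scd2 and C1ra. The largest falls were those of Klf13, Gdf5, Actb, Skp1, Mgst3, Mettl26, Bhlhe40, Aqp1, Sox7, Car8, Cnn2 and Ets1, all between -1.11 and -0.67 on the log2 scale. With quantile normalization in place of median centring the split was 22 higher and 49 lower. Without the 3 chow arrays that stood apart the counts were 15 higher and 225 lower, and these held all 5 rises and all 37 falls of the full set. Without those 3 arrays and probucol replicate 3 at 21 days together, 11 genes were higher and 174 lower.

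Apod encodes apolipoprotein D, a lipocalin that binds small lipids, and showed the largest difference of the comparison. Its log2 signal was 7.11, 6.54 and 8.39 in the probucol hearts at 21 days, 6.67, 6.48 and 6.61 at 31 days, and 7.95 and 7.22 at 43 days. In chow hearts the lowest, median and highest values were 3.07, 4.73 and 5.14 at 21 days, 2.30, 3.56 and 5.04 at 31 days, and 2.26, 4.19 and 5.66 at 43 days. All 8 probucol arrays therefore lay above all 28 chow arrays, which was true of 1 gene in the table (0.0176%), and 0 genes had all probucol arrays below all chow arrays. The difference was 3.07 ± 0.35 (SE, log2), or 8.39-fold, with an adjusted p of 5.41e-07. Since 3 of the 36 arrays, all chow, were at the signal floor, their levels are upper limits and the fold is likely understated. Apod passed the test at each age separately, with differences of 2.96 at 21 days (adjusted p = 0.0179), 2.97 at 31 days (adjusted p = 0.004) and 3.36 at 43 days (adjusted p = 0.0357). Without probucol replicate 3 at 21 days the 21-day difference was 2.44 (adjusted p = 0.603) and the pooled difference 2.93 (adjusted p = 7.76e-06).

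Abca1, the transporter that moves cell cholesterol and phospholipid onto lipid-poor apolipoprotein A-I, was at 8.31, 7.57 and 8.24 log2 signal in the probucol hearts at 21 days, 8.05, 8.22 and 7.58 at 31 days, and 8.03 and 7.71 at 43 days. Chow hearts had medians of 6.93 (6.42 to 7.30), 7.75 (7.07 to 8.27) and 7.36 (6.69 to 7.74) at the same ages. The groups were apart at 21 days, as 0.758% of genes were with probucol above, overlapped at 31 days, and at 43 days the lower probucol array lay just under the highest chow array. The pooled difference was 0.65 ± 0.15 (adjusted p = 0.0248), or 1.57-fold, and a dimmer probe set of the gene gave 0.91 ± 0.23. Within ages Abca1 passed at 21 days (1.17 ± 0.23, adjusted p = 0.0106) and not at 31 days (0.23 ± 0.22, adjusted p = 0.609) or 43 days (0.54 ± 0.26, adjusted p = 0.716). Leaving out 1 probucol array at a time, the pooled difference was 0.56 to 0.76 and the call was lost in 5 of 8 cases (adjusted p of 0.0147 to 0.0654).

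The 250 bases before the transcription start of these genes are shown because Abca1 is a textbook LXR target and Apod the gene that moved most. They are from RefSeq on GRCm38.p6, on the minus strand for both genes, at chr4:53159896-53160145 for Abca1 and chr16:31314809-31315058 for Apod. Capitals mark, from 5' to 3', a CACGTG E-box, a match on the other strand to the DR4-type element bound by LXR, searched as 2 copies of GGTNA in the same orientation with 5 bases between them, and a TATAAA box.
Abca1: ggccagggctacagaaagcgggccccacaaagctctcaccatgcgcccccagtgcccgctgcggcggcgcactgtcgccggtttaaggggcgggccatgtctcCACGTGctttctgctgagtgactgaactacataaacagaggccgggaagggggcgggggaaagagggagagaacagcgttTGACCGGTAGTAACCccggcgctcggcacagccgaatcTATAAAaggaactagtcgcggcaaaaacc
Apod: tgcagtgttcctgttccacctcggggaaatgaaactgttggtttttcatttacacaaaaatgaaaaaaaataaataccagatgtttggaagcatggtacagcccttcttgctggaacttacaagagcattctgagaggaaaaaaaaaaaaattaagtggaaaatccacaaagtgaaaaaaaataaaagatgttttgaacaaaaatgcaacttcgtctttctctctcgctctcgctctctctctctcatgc
The DR4-type match of Abca1 covers bases 67 to 53 before the start, the E-box 147 to 142 and the TATAAA box 29 to 24, and these matches do not overlap. Over both strands, 0.621% of 32851 mouse promoter windows of this length hold the DR4-type letters, 6.02% CACGTG and 12.4% TATAAA. Of the 42 genes called, 29 had a promoter in the table, and the DR4-type letters were in 1 of them (Abca1), CACGTG in 3 (Abca1, Dnajb9 and Lims1) and TATAAA in 2 (Abca1 and Lims1). The window of Apod held none of these letters.

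Scd2, a desaturase that makes monounsaturated fatty acids, was at 8.96, 8.81 and 8.42 log2 signal in the probucol hearts at 21 days, 8.36, 8.41 and 8.39 at 31 days, and 8.43 and 8.19 at 43 days. Chow hearts had medians of 7.73 (7.42 to 8.18), 8.13 (7.49 to 8.40) and 7.78 (7.54 to 8.17). At 21 and 43 days all probucol arrays lay above all chow arrays of that age (1.48% of genes at 43 days), and 5 of the 8 lay above every chow array of any age. The pooled difference was 0.62 ± 0.11 (adjusted p = 0.00127), or 1.54-fold, and a second probe set gave 0.43 ± 0.18. Apod and Scd2 passed the test whichever of the 8 probucol arrays was left out.

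Of the list of cholesterol efflux genes and LXR targets, 12 of 16 members were tested, and 3 were higher (Apod, Scd2 and Abca1) and 0 lower, with 6 higher at an unadjusted p under 0.05. The list's median difference was 0.21, against -0.05 over all genes. Srebf1, a regulator of fatty acid synthesis, had a difference of 0.65 ± 0.18 that missed the threshold (adjusted p = 0.0721), and Abcg1, a transporter that loads cholesterol onto high-density lipoprotein, one of 0.49 ± 0.15 (adjusted p = 0.132). Without the 3 chow arrays that stood apart, 5 of the 12 members were higher, Srebf1 at 0.56 (adjusted p = 0.00542) and Abcg1 at 0.48 (adjusted p = 0.0499) among them. In that fit 15 of all 5672 genes were higher. The gene of LXR alpha itself, Nr1h3, had a difference of -0.36 ± 0.26 (adjusted p = 0.58). Among the genes of sterol synthesis and LDL uptake, which respond to low cell cholesterol, 0 of 8 tested members passed (1 lower at an unadjusted p under 0.05), with a median of -0.04.

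**Figure D1:**
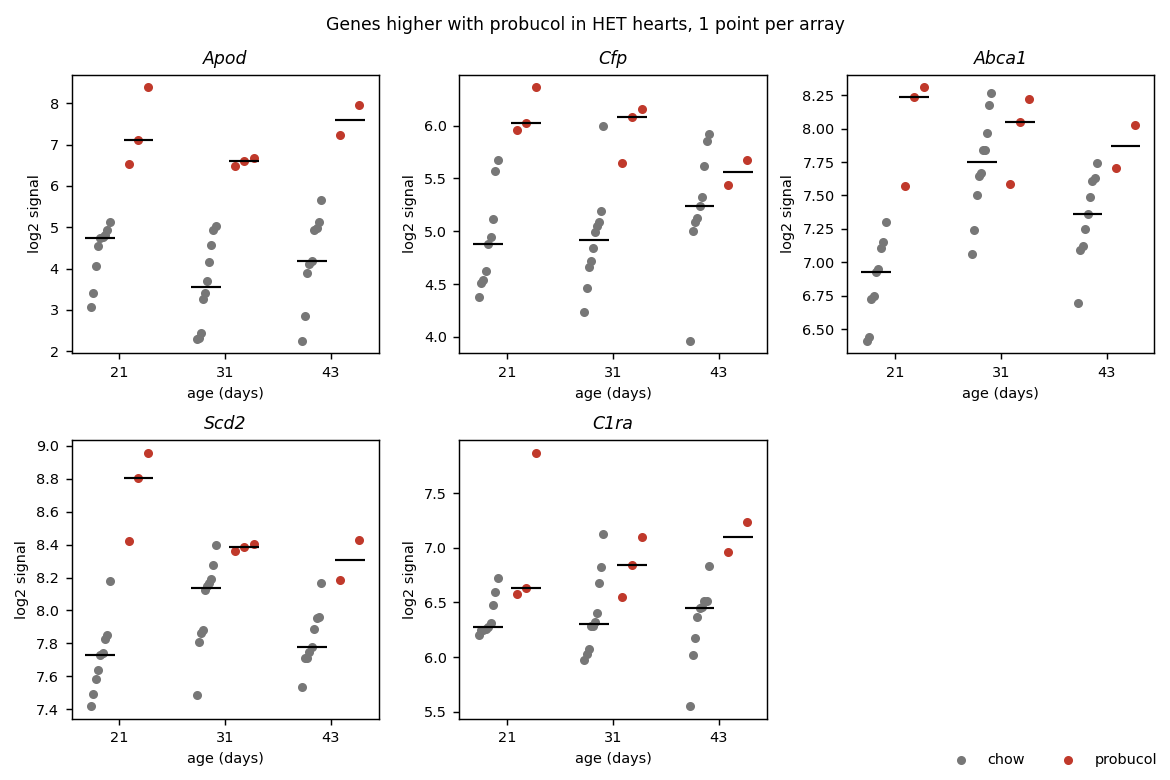
Log2 signal (y axis, each array centred on its median) of the 5 genes higher with probucol, by age in days (x axis), with 1 point per heart, grey for chow and red for probucol, and lines at group medians. The probucol arrays of Apod (6.48 to 8.39) lie above all chow arrays (2.26 to 5.66), while those of the other genes overlap chow at some age.

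The other rises were in the complement system. Cfp encodes properdin, which stabilizes the convertase of the alternative pathway, and stood at 6.02, 5.95 and 6.36 log2 signal in the probucol hearts at 21 days, 6.16, 5.64 and 6.08 at 31 days, and 5.44 and 5.67 at 43 days. Chow medians were 4.88 (4.38 to 5.67), 4.92 (4.23 to 5.996) and 5.24 (3.97 to 5.92), so the diets were apart at 21 days and overlapped later. The pooled difference was 0.91 ± 0.21 (adjusted p = 0.0248), or 1.87-fold. C1ra, a protease of the C1 complex of the classical pathway, was at 6.63, 6.58 and 7.87 at 21 days, 7.10, 6.55 and 6.85 at 31 days, and 6.96 and 7.24 at 43 days with probucol, and its chow medians were 6.28 (6.21 to 6.72), 6.30 (5.98 to 7.13) and 6.45 (5.55 to 6.83). Its groups overlapped at 21 and 31 days, and the highest value was that of replicate 3 at 21 days. The pooled difference was 0.60 ± 0.14 (adjusted p = 0.0321), or 1.52-fold, and with the signals as deposited, without centring, its adjusted p was 0.0999. With the array set as a block Cfp was at 0.92 (adjusted p = 0.0473) and C1ra at 0.51 (adjusted p = 0.094).

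Of 19 complement and acute phase genes tested, 2 were higher and 0 lower, and 18 of the 19 differences were positive, with a median of 0.17. Over all genes 2351 of 5672 differences were positive. Without probucol replicate 3 at 21 days 0 of the 19 passed, and the differences were 0.84 for Cfp (adjusted p = 0.0557) and 0.48 for C1ra (adjusted p = 0.104). Of 13 macrophage markers tested 0 passed (1 higher, Ctss, and 1 lower, Cd14, at an unadjusted p under 0.05). Of these 13 differences 12 were positive, with a median of 0.22. The summed signal of the 14 macrophage markers on the array was 3140 to 5801 in probucol hearts and 2321 to 5386 in chow hearts, with 0 of the markers at the floor on most arrays. With each probucol array left out in turn, Cfp lost its call in 4 of 8 cases and C1ra in 5 of 8. The part of macrophages in the complement rises was not tested.

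Skp1, the adaptor that links F-box proteins to the SCF ubiquitin ligase, gave the smallest p among the falls. It was at 7.52, 6.86 and 6.90 log2 signal in the probucol hearts at 21 days, 6.41, 6.54 and 6.03 at 31 days, and 6.61 and 6.33 at 43 days. Chow medians were 7.30 (6.89 to 7.82), 7.84 (6.69 to 8.21) and 7.63 (7.07 to 7.92). All probucol arrays at 31 and 43 days lay below all chow arrays of the same age (4.25% and 2.79% of genes did so), while those at 21 days overlapped them. The pooled difference was -0.93 ± 0.16 (adjusted p = 0.00127), and at 31 days it was -1.47 ± 0.22 (adjusted p = 0.000525).

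Bhlhe40, a repressor that responds to metabolic and stress signals and acts in the circadian clock, was at 5.77, 6.16 and 6.46 at 21 days, 6.12, 6.09 and 5.96 at 31 days, and 6.17 and 6.02 at 43 days with probucol. Chow medians were 6.51 (5.77 to 6.80), 7.11 (6.71 to 7.56) and 7.10 (6.49 to 7.64). The probucol level was nearly the same at the 3 ages, and the groups were apart at 31 and 43 days, where the chow level was higher than at 21 days. The pooled difference was -0.76 ± 0.14 (adjusted p = 0.00279). Of 17 circadian clock genes tested, Bhlhe40 was the 1 that passed (3 lower at an unadjusted p under 0.05), and the list's median was -0.08. Skp1 and Bhlhe40 passed whichever probucol array was left out.

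Among the falls were a pair of genes known from endothelium. Sox7, a transcription factor of endothelial cells, was at 6.27, 6.91 and 5.87 at 21 days, 7.03, 7.13 and 6.18 at 31 days, and 6.60 and 7.05 at 43 days with probucol, against chow medians of 7.23, 7.75 and 7.12, and differed by -0.73 ± 0.15 (adjusted p = 0.017). Aqp1, the water channel of capillary endothelium, was at 8.79, 10.06 and 8.77, then 8.50, 9.48 and 8.44, then 9.39 and 9.09, against chow medians of 9.78, 9.69 and 9.87, and differed by -0.76 ± 0.18 (adjusted p = 0.0299). The high Aqp1 value at 21 days was that of replicate 2, the probucol array in the smaller array set. Of 11 endothelial markers tested, Aqp1 was the 1 that fell and 0 rose, with a median of -0.11 and with Cdh5, VE-cadherin, at -0.44 ± 0.14 (adjusted p = 0.133) and Pecam1 at 0.51 ± 0.25 (adjusted p = 0.384). The summed endothelial markers were 2657 to 4165 with probucol and 2458 to 5496 with chow, and the part of endothelial cells in these falls was not tested. Ets1, another transcription factor of endothelial and lymphoid cells, fell by 0.67 on the log2 scale (adjusted p = 0.0376). A second Ets1 probe set of similar brightness gave -0.28 ± 0.23, so the size of its fall is uncertain. With the array set as a block Sox7 kept its call (-0.68, adjusted p = 0.0473), whereas Aqp1 was at -0.66 (adjusted p = 0.0902) and Ets1 at -0.64 (adjusted p = 0.0884).

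Cnn2, calponin 2, an actin-binding protein, was at 6.20, 5.97 and 5.62, then 6.25, 5.64 and 5.69, then 6.14 and 6.20 with probucol, against chow medians of 6.34, 7.01 and 6.72. Its difference was -0.68 ± 0.14 (adjusted p = 0.017), with all 3 probucol arrays at 31 days below all chow arrays of that age. Gdf5, a ligand of the BMP family, was at 3.73, 3.97 and 4.90, then 4.35, 5.04 and 3.80, then 2.60 and 5.56, against chow medians of 5.22, 5.52 and 5.32, and differed by -1.02 ± 0.23 (adjusted p = 0.0248). The 43-day arrays of Gdf5 lay on both sides of the chow range. Among enzymes, Mgst3, a microsomal glutathione transferase, differed by -0.86 ± 0.19 (adjusted p = 0.021), and Car8, a carbonic anhydrase relative without that activity, by -0.70 ± 0.16 (adjusted p = 0.0299). Mettl26 differed by -0.78 ± 0.20 (adjusted p = 0.0479). With the array set as a block Cnn2 was at -0.60 (adjusted p = 0.0402), and Gdf5 (-0.97, adjusted p = 0.0612), Mgst3 (-0.77, adjusted p = 0.0612), Car8 (-0.61, adjusted p = 0.0884) and Mettl26 (-0.73, adjusted p = 0.114) missed the threshold.

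Some of these falls were not shared by every probe set of the gene. The probe set that stood for Klf13, a zinc finger transcription factor, gave -1.11 ± 0.26 (adjusted p = 0.0299), and another probe set of Klf13 gave 0.77 ± 0.29. For Actb, cytoplasmic actin, the probe set used gave -0.95 ± 0.24 (adjusted p = 0.0492) and a second -0.56 ± 0.18, but the array's 3 bright control probe sets for actin gave 0.01 to 0.39. Dnajb9, an endoplasmic reticulum chaperone, was at -0.61 ± 0.15 (adjusted p = 0.0463) on the probe set used and at 0.03 ± 0.17 on another. A dim second probe set of Mgst3, at the floor on 24 of 36 arrays, gave 0.66. The calls on Klf13, Actb and Dnajb9 are therefore uncertain, and with the array set as a block none of these 3 passed (adjusted p of 0.0871, 0.14 and 0.0612). Prpf19, a ubiquitin ligase of the spliceosome, differed by -0.65 ± 0.13 (adjusted p = 0.00938), with a second probe set at -0.54 ± 0.25.

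**Figure D2:**
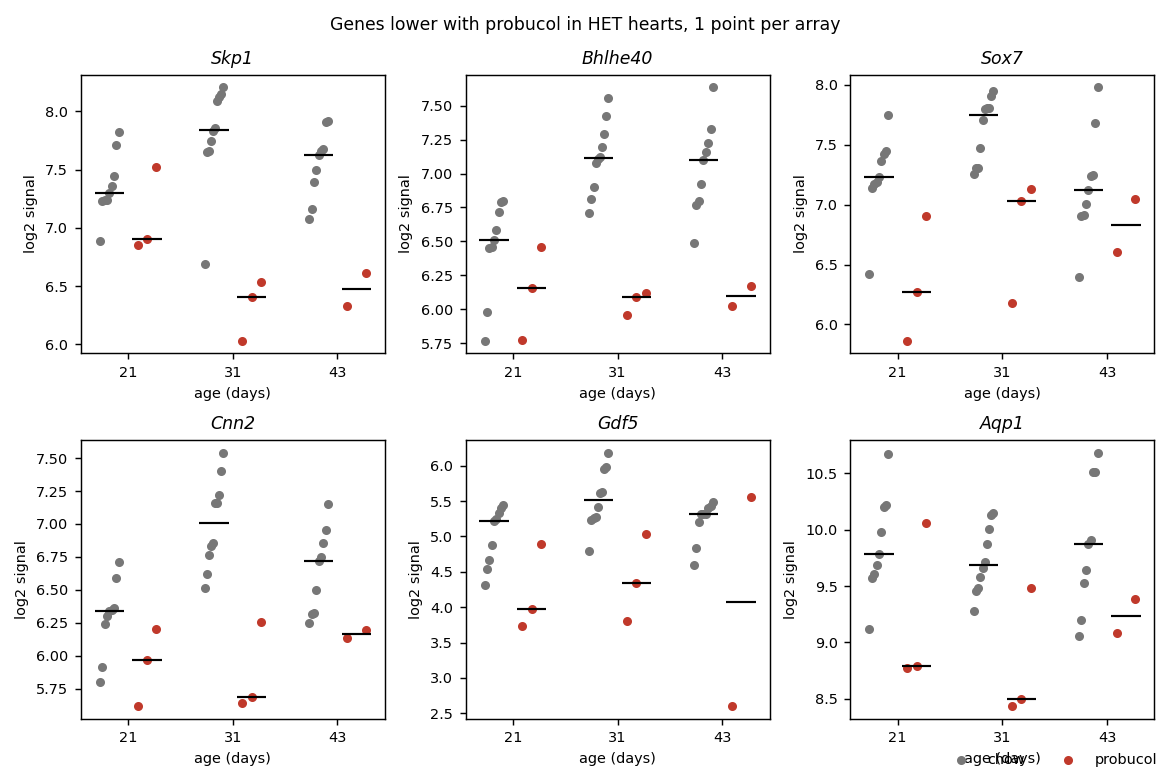
Log2 signal (y axis, each array centred on its median) of 6 of the 37 genes lower with probucol, by age in days (x axis), with 1 point per heart, grey for chow and red for probucol, and lines at group medians. For Skp1 and Bhlhe40 the diets are apart at 31 and 43 days and overlap at 21 days.

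The number of falls depended on the hearts of the later ages. Of the 37 genes, 35 had negative differences at all 3 ages (the others were Npepps and Actb). The median differences of the 37 were -0.32 at 21 days, -0.82 at 31 days and -0.64 at 43 days. Over all genes tested the medians were 0.08, -0.16 and -0.05 at these ages, so the whole table also lay lowest at 31 days. Taken alone, 21 of the 37 passed at 31 days and 0 at 21 or 43 days. The 37 were called on the difference pooled over these same hearts. Like signs and calls within ages are therefore partly built in and are no separate support. With the 31-day hearts left out, 3 genes were higher (Apod, Scd2 and Abca1) and 0 lower, with 148 lower at an unadjusted p under 0.05 (limma). Without the 43-day hearts 3 were higher (Apod, Cfp and Scd2) and 1 lower (Sox7), and without the 21-day hearts 13 higher and 240 lower. Leaving out 31-day probucol replicate 1, 2 or 3 left 4, 9 or 4 lower genes, all among the 37, while leaving out replicate 1, 2 or 3 at 21 days gave 58, 91 or 39. At 43 days the counts were 24 without replicate 1 and 9 without replicate 2. A fit with a block for array set gave 4 higher and 9 lower. Called alike with median centring, with the signals as deposited, with quantile normalization and with the array set as a block were 4 rises (Apod, Abca1, Cfp and Scd2) and 8 falls. Those falls were Skp1, Bhlhe40, Sox7, Cnn2, Prpf19, Corin, the protease that activates atrial natriuretic peptide, Lims1, an adaptor of integrin adhesions, and Ythdf3, a reader of methylated RNA.

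**Figure D3:**
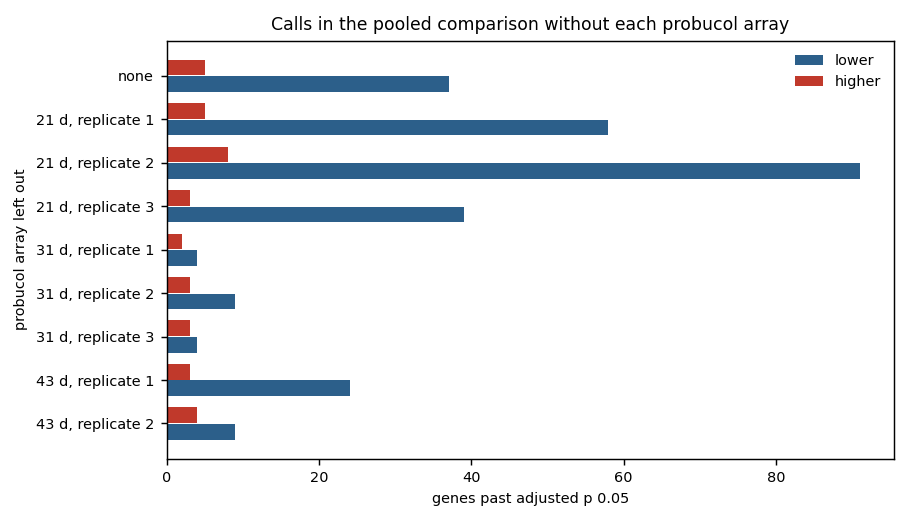
Number of genes past an adjusted p of 0.05 (x axis) in the pooled comparison, higher (red) or lower (blue) with probucol, with all arrays and without each of the 8 probucol arrays (y axis). The lower genes number 37 with all arrays and 4 to 9 when any single 31-day array is left out.

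At 21 days alone, 8 genes were higher (0.141%) and 0 lower (92 lower at an unadjusted p under 0.05; limma). The 8 were Apod, Abca1, Scd2, the inorganic pyrophosphatase Ppa1, and the class I antigen presentation genes B2m, H2-D1, H2-K1 and H2-Bl, the last of which, with Ppa1, was named after its values were seen. With the signals as deposited 0 genes passed at 21 days. At an unadjusted p under 0.05 (limma) 54 were then higher and 325 lower, against 191 and 92 with centring. The prevailing direction at 21 days therefore depended on the centring. B2m, the shared light chain of class I molecules, was at 11.02, 10.31 and 12.44 in the probucol hearts against 8.68 to 10.27 in chow. H2-D1, a class I heavy chain, was at 10.31, 9.42 and 12.56 against 8.50 to 9.09. All 3 probucol arrays lay above all chow arrays of that age for both genes, but replicate 3 was far above the others. The differences at 21 days were 1.71 ± 0.35 for B2m (adjusted p = 0.0189), 1.88 ± 0.32 for H2-D1 (adjusted p = 0.002) and 1.60 ± 0.31 for H2-K1 (adjusted p = 0.0106). Class I heavy chains are near-identical paralogs, so their probe sets may share signal.

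Replicate 3 at 21 days carried a broad interferon pattern. Its mean log2 signal over 22 interferon-induced genes was 8.73, against 5.63 and 5.94 in the other 21-day probucol hearts and 5.33 to 6.10 in 21-day chow hearts, and the next highest of all 88 arrays, a dKO chow heart at 21 days, was at 6.95. Of the 22 genes, 18 were above all 28 chow arrays in this heart, and of 15 MHC genes 14 were. No share over all genes is given for this heart alone. Igtp, an interferon-induced GTPase, was at 12.06 there and at 5.58 and 4.88 in the other 21-day probucol hearts, against 4.42 to 5.35 in chow. The median difference at 21 days was 1.10 for the interferon list and 1.26 for the MHC list with all arrays, against 0.08 over all genes. Without replicate 3 these medians were 0.16 and 0.31, and the genes past the threshold at 21 days numbered 1, Scd2 (1.16, adjusted p = 0.00139). H2-D1 was then at 0.98 (adjusted p = 0.236) and B2m at 1.12 (adjusted p = 0.946). In the pooled comparison 0 of the 22 interferon and 0 of the 15 MHC genes passed (4 and 3 higher at an unadjusted p under 0.05), and their medians fell from 0.42 and 0.41 to 0.01 and 0.04 without this heart.

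**Figure D4:**
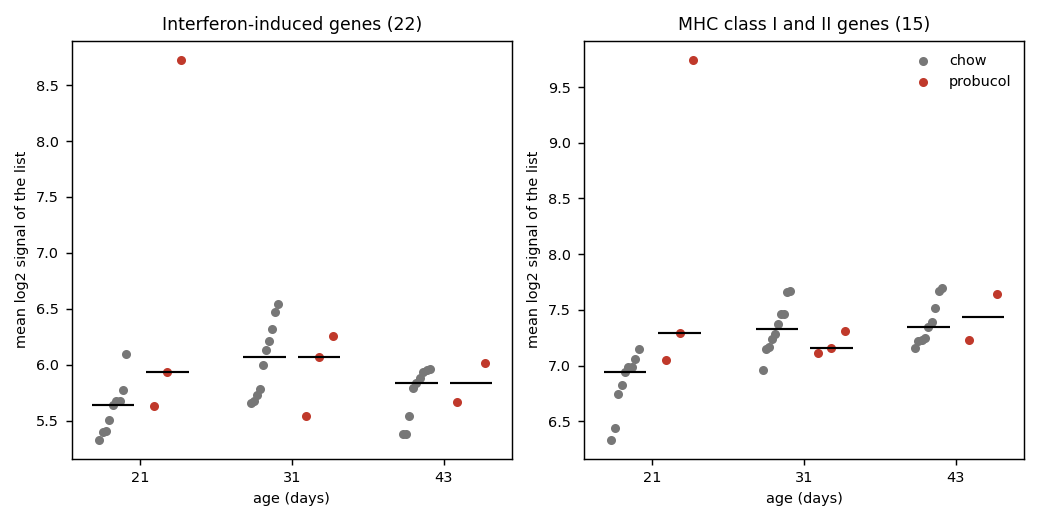
Mean log2 signal (y axis) of 22 interferon-induced genes (left) and 15 MHC genes (right) in each heart, by age in days (x axis), grey for chow and red for probucol, with lines at group medians. The 21-day probucol heart at 8.73 (left) and 9.74 (right) lies above every other HET heart.

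At 31 days alone, 5 genes were higher (0.0882%) and 133 lower (2.34%), and the median difference over all genes was -0.16. Cyp2b10, a drug-metabolizing enzyme induced through the nuclear receptor CAR, was at 5.53, 6.39 and 6.48 with probucol against 3.16 to 5.10 in chow, a difference of 2.09 ± 0.55 (adjusted p = 0.0362). At 21 days its probucol values of 3.57, 3.90 and 4.26 lay within the chow range of 3.16 to 6.17. At 43 days they were 5.99 and 5.44 within a chow range of 3.75 to 6.57. Among the falls at 31 days were Sod1, the cytosolic superoxide dismutase, at -1.25 ± 0.20 (adjusted p = 0.000944), Cd36, the fatty acid transporter, at -0.78 ± 0.22 (adjusted p = 0.0462), Gja1, the gap junction protein connexin 43, at -0.66 ± 0.18 (adjusted p = 0.0453), and Ier2 at -0.86 ± 0.22 (adjusted p = 0.034). Without 31-day replicate 1, 2 or 3 the genes called at this age numbered 58, 29 or 23, and without the chow arrays that stood apart 479.

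At 43 days, with 2 probucol hearts, 1 gene was higher (Apod, 0.0176%) and 3 lower (0.0529%). The falls, of which Hdhd5 and Hnrnpl were named after their values were seen, were Tpm2 at -1.83 ± 0.29 (adjusted p = 0.0011), Hnrnpl at -1.81 ± 0.33 (adjusted p = 0.00906) and Hdhd5 at -2.39 ± 0.48 (adjusted p = 0.0243). Tpm2, beta-tropomyosin of the thin filament, was at 4.71 and 4.79 with probucol against 5.48 to 7.15 in chow, so the groups were apart. Hnrnpl, an RNA-binding protein, was at 4.32 and 6.41 against 6.07 to 7.56, with 1 of the arrays inside the chow range. A second, dimmer probe set of Tpm2 differed in the other direction over all ages, at 0.71 ± 0.35 against -0.63 ± 0.18 for the one used, so its call is uncertain. Without 43-day replicate 1 or 2 the calls at this age numbered 30 or 3, each from 1 probucol heart assumed to vary like the other groups.

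The difference between ages was tested directly. An F test over the 3 ages called 0 genes (576, or 10.2%, at an unadjusted p under 0.05; limma). Between 31 and 21 days 1 gene had a higher difference at 31 days (Cyp2b10, 0.0176%) and 20 a lower one (0.353%), Grk6, Fmnl1, B2m, H2-D1 and Atxn2 furthest. For Cyp2b10 the change from 21 to 31 days was 3.32 ± 0.78 (adjusted p = 0.0485), for B2m -2.15 ± 0.50 (adjusted p = 0.042) and for H2-D1 -1.97 ± 0.45 (adjusted p = 0.0392). Without probucol replicate 3 at 21 days 0 genes passed (811 at an unadjusted p under 0.05, against 814 with all arrays). For most of the named genes the size was then little changed, with Cyp2b10 at 3.49 (adjusted p = 0.0751), Grk6 at -3.52 (adjusted p = 0.0707) and Sod1 at -1.54 (adjusted p = 0.0533). B2m (-1.56, adjusted p = 0.122) and H2-D1 (-1.07, adjusted p = 0.108) were smaller. With the sex score as a covariate 41 genes passed, Cyp2b10 among them (3.26, adjusted p = 0.048). With the array set as a block 2 did, with Sod1 at -1.52 (adjusted p = 0.0397) and Cyp2b10 at 3.0 (adjusted p = 0.125), and without 31-day replicate 3, 0 (606 at an unadjusted p under 0.05). Grk6 (-3.49 ± 0.76) and Fmnl1 (-3.42 ± 0.77) were among the 40 genes at 1 end of the component that split the arrays into sets, and 6 of the 10 chow arrays at 31 days but 0 of the 3 probucol arrays lay in the smaller set. With the array set as a block Grk6 was at -2.84 (adjusted p = 0.0955) and Fmnl1 at -2.89 (adjusted p = 0.125). Pooled over ages, the probe sets used gave -1.26 for Fmnl1 and -0.81 for Atxn2. Second probe sets gave -0.18 ± 0.23 and -0.23 ± 0.12. The cause of the differences between ages was not tested.

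In the lists of muscle stress, matrix, contractile and energy genes 0 members passed in the pooled comparison. Genes outside these lists did, such as Cox16, a cytochrome oxidase assembly factor (-0.46, adjusted p = 0.0479), and Tgfb3, a growth factor of matrix remodelling (-0.48, adjusted p = 0.0464), both named after their values were seen. Among 19 natriuretic peptide and muscle stress genes 0 passed (0 at an unadjusted p under 0.05), with a median of 0.03 and with Sprr1a, a stress protein of injured cardiomyocytes, at 0.56 ± 0.29 (adjusted p = 0.4). Among 37 extracellular matrix genes 0 passed (2 lower at an unadjusted p under 0.05), and Postn, periostin, was at -0.38 ± 0.16 (adjusted p = 0.294). Of 23 sarcomere genes, 49 of the citrate cycle and respiratory chain and 29 of fatty acid uptake and oxidation, 0 passed in each (1, 3 and 2 lower and 0, 1 and 0 higher at an unadjusted p under 0.05), with medians of -0.02, -0.01 and -0.12. Cox8b, a respiratory chain subunit, was at -0.62 ± 0.22 (adjusted p = 0.189) and Pdk4, which restrains glucose oxidation, at -0.65 ± 0.27 (adjusted p = 0.292).

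Antioxidant genes are of interest because probucol is an antioxidant. Of 21 antioxidant genes and targets of the factor NRF2, 0 passed (0 higher and 3 lower at an unadjusted p under 0.05), with a median of -0.12. Sod1 was at -0.58 ± 0.16 (adjusted p = 0.0738), Gpx4, which removes lipid peroxides, at -0.35 ± 0.11 (adjusted p = 0.123) and Nfe2l2, the gene of NRF2, at -0.31 ± 0.12 (adjusted p = 0.252). Without the 3 chow arrays that stood apart these 3 genes passed, at -0.62 (adjusted p = 0.0208), -0.38 (adjusted p = 0.0317) and -0.36 (adjusted p = 0.0489). In that fit 225 of all 5672 genes were lower, against 37 with all arrays. With the signals as deposited 2 of the antioxidant list were lower. Of 21 glutathione transferases and xenobiotic enzymes Mgst3 was lower and 0 were higher.

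Among 19 immediate early genes, which respond within minutes to stimuli and handling, 0 passed and 6 were lower and 0 higher at an unadjusted p under 0.05, with a median of -0.19. Fos was at -0.91 ± 0.25 (adjusted p = 0.0704) and Dusp1, a phosphatase of MAP kinases, at -0.54 ± 0.14 (adjusted p = 0.0634). Without the 3 chow arrays that stood apart 5 of the 19 were lower (Fos, Dusp1, Ier2, Klf6 and Rgs2), when 225 of all 5672 genes were lower, against 37 with all arrays. In the heat shock list (29 genes tested) and the unfolded protein list (24 tested) the 1 gene lower was Dnajb9, whose probe sets disagreed as given above. In the remaining lists single members fell. They were Kcnj8, the pore of a vascular potassium channel, at -0.56 ± 0.13 (adjusted p = 0.0321; 1 of 17 channel and gap junction genes) and Psmb7, a catalytic proteasome subunit, at -0.46 ± 0.10 (adjusted p = 0.021; 1 of 28 proteasome genes). With the array set as a block Kcnj8 (-0.50, adjusted p = 0.0919) and Psmb7 (-0.42, adjusted p = 0.0546) missed the threshold. Among 14 chemokines and cytokines 0 passed (3 higher and 2 lower at an unadjusted p under 0.05), with Ccl2, a chemokine for monocytes, at 1.10 ± 0.40 (adjusted p = 0.191), Ccl8 at 1.02 ± 0.35 (adjusted p = 0.171) and Tgfb1 at -1.66 ± 0.44 (adjusted p = 0.0634).

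The same drug was given to dKO mice, whose hearts become infarcted, and the comparison between genotypes asked whether the response of HET hearts was shared. It used 20 probucol and 32 chow dKO arrays, none of them among the HET arrays. In the fit of all 88 arrays the HET counts were 17 higher (0.3%) and 82 lower (1.45%), and in dKO hearts 970 genes were higher (17.1%) and 1180 lower (20.8%), 2150 (37.9%) in all. The effect in HET was above that in dKO hearts for 479 genes (8.44%) and below it for 551 (9.71%; limma). All 5 genes that rose in HET hearts fell in dKO hearts, and all 5 differed between genotypes. Because the 5 were called on the HET change, which also enters this difference, their passing it is partly built in. Apod was at 3.07 ± 0.37 in HET and -0.97 ± 0.26 in dKO hearts, a difference of 4.04 (95% interval 3.14 to 4.93, adjusted p = 5.06e-11). Its dKO chow level rose from a median of 7.15 at 21 days to 9.97 at 31 and 10.71 at 43 days, above every HET chow array, and with probucol it was 8.50, 7.79 and 8.76. At 21 days the dKO difference of Apod was positive, 1.21 ± 0.39 (adjusted p = 0.107), and the genotypes did not separate in the test (1.75 ± 0.64, adjusted p = 0.221), whereas at 31 and 43 days they differed by 5.0 and 5.19.

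Cfp was at 0.91 in HET and -1.24 ± 0.14 in dKO hearts, Abca1 at 0.65 and -0.50 ± 0.11, Scd2 at 0.62 and -0.38 ± 0.09, and C1ra at 0.60 and -0.33 ± 0.10. The adjusted p of these 4 differences between genotypes was 5.53e-05 or less. Chow levels of all 4 were higher in dKO than in HET hearts by median at each age. With probucol at 43 days the median of Cfp was 5.88 in dKO against 5.44 and 5.67 in the HET hearts. For Cfp, Abca1, Scd2 and C1ra the dKO differences at 21 days were -0.50 ± 0.22, 0.16 ± 0.18, -0.01 ± 0.14 and -0.16 ± 0.17, and none of these 4 passed. The genotypes differed at 21 days for Cfp (1.70, adjusted p = 0.00627) and Scd2 (1.02, adjusted p = 0.0129; limma). Abca1 (1.01, adjusted p = 0.0889) and C1ra (0.82, adjusted p = 0.193) missed the threshold. C1ra did not pass at 31 days either, at -0.03 ± 0.16 in dKO hearts (adjusted p = 0.938) with a difference between genotypes of 0.46 (adjusted p = 0.31). At 43 days its difference between genotypes was 1.62. Without the dKO array whose description gives another age, 1038 genes differed between genotypes, and Apod was at 1.30 in dKO hearts at 21 days (adjusted p = 0.107).

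Of the 37 genes that fell in HET hearts, 11 also fell in dKO hearts, 6 rose and 20 did not pass, and 24 of the 37 differed between genotypes. Over all genes tested, 20.8% fell and 17.1% rose in dKO hearts, and 18.2% differed between genotypes. The 37 were called on the HET change that also enters the difference between genotypes. An excess over 18.2% is therefore partly built in and is no separate support. Across all genes the changes in HET and dKO hearts had a correlation of 0.001. Bhlhe40 was at -0.76 ± 0.15 in HET and -1.10 ± 0.11 in dKO hearts (adjusted p in dKO = 2.78e-14), with a difference of 0.34 whose interval of -0.03 to 0.70 includes 0. Cnn2 was at -0.68 ± 0.13 and -0.88 ± 0.09, with a difference of 0.19 (-0.12 to 0.51). Sox7, Ets1, Kcnj8, Tgfb3, Nus1, Pgrmc1, Txndc17, Tmem123 and Ap3d1 were the other falls present in both genotypes, most of them named after their values were seen. Aqp1 fell in HET hearts and rose in dKO hearts by 0.73 ± 0.12, a difference of -1.48 (-1.90 to -1.06), and Corin (0.39 ± 0.10 in dKO) and Mgst3 (0.44 ± 0.14 in dKO) also went opposite ways.

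**Figure D5:**
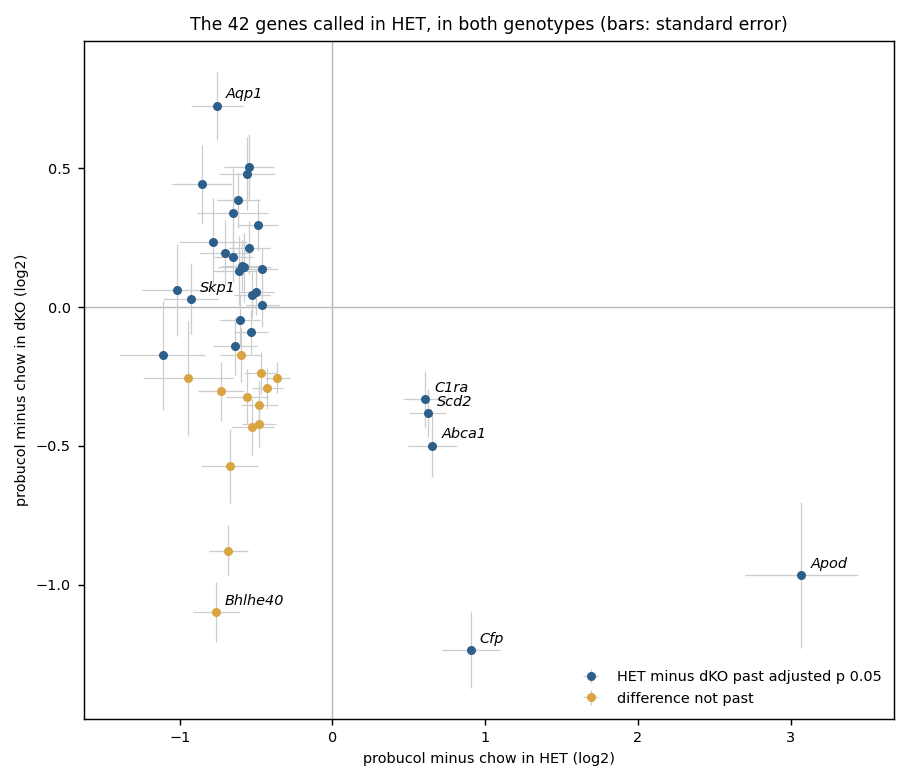
Probucol minus chow (log2, bars are standard errors) in HET (x axis) and dKO hearts (y axis) for the 42 genes called in HET. The 5 rises lie in the lower right, since each fell in dKO hearts, and blue marks the 29 genes whose difference between genotypes passed an adjusted p of 0.05.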

How the data were processed

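Gene expression was measured on Affymetrix arrays from whole hearts, 1 array per mouse. The deposited values are linear signal intensity from the authors' MAS5 processing, per the submitters' processing notes; no source used here states a further scaling step. The 88 arrays were floored at the 10th percentile of all signals (4.22), taken to log2 and centred on each array's median. Of 12488 probe sets, 66 were controls, and 10855 had a single gene symbol in the platform annotation. For each of 8252 symbols the brightest probe set within the upper 60% by mean signal was kept, which left 5672 genes. Differences between diets were fitted in the 36 HET arrays with age as a factor (limma 3.58.1 in R 4.3.3, intensity trend, Benjamini-Hochberg adjusted p under 0.05), within each age in a model of diet by age, and against dKO in all 88 arrays. The script was tested on simulated data. The text names Scarb1 and Apoe, the 12 largest rises and falls, up to 3 genes of smallest p per list, and the 5 largest age or genotype differences per direction; the promoters, and genes said to be so or used to account for a count, were added after their values were seen. The members and lists were chosen with earlier results of these data known. Array counts limit the precision. Labels give separate mice, so p-values measure the spread between animals. Alternatives covered scaling, filters, probe set choice, covariates, array set, replicates and ages.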

Additional observations from a re-analysis of the deposited data

Results flagged for a closer look

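Within chow groups, 15 of 189 gene and age groups examined (7.94%) held an array far from the rest of its group. The 189 share the same 28 arrays, so no chance rate is set beside these 15 cases. Of these, 4 were in replicate 7 at 31 days, which read low for Skp1 (6.69), Cd36 (7.46), Dnajb9 (6.26) and Atxn2 (6.43), and 3 in replicate 2 at 21 days, which read low for Sox7 (6.42) and Atxn2 (4.96) and high for the B-cell gene Cd79a (7.52). Both are among the chow arrays that stood apart, as is replicate 9 at 43 days, low for H2-K1 (9.61). The others were low values of Cfp in replicate 7 (3.97) and Tpm2 in replicate 1 (5.48) at 43 days, of Cox8b in replicate 5 at 31 days (9.37), and of Pecam1 in replicate 5 (5.38), Tsc22d3 in replicate 3 (4.02) and Isg20 in replicate 8 (3.005) at 21 days, and a high value of Car8 in replicate 1 at 21 days (6.195). All values are log2 signals.

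The probucol effect differed between HET and dKO hearts in the limma test of that difference, given here as HET minus dKO in log2. It was 4.04 for Apod, 2.14 for Cfp, 1.15 for Abca1, 1.01 for Scd2 and 0.94 for C1ra. Among the falls it was -0.94 for Klf13, -1.08 for Gdf5, -0.96 for Skp1, -1.30 for Mgst3, -1.01 for Mettl26, -1.48 for Aqp1, -0.90 for Car8, -0.60 for Psmb7 and -0.74 for Dnajb9. These genes were called on their HET change, which enters the difference, so its size is partly built in.

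For the genes below the effect also differed between 31 and 21 days in limma, given as 31 minus 21 days in log2. The F test over all ages called 0 genes. The drug-metabolizing enzyme Cyp2b10 was at 3.32. The falls were -1.52 for Sod1, -1.97 for H2-D1, -1.03 for the proteasome subunit Psmb2, -3.49 for Grk6, -3.42 for Fmnl1, -2.15 for B2m and -1.93 for Atxn2. Without probucol replicate 3 at 21 days, 0 genes passed the test between 31 and 21 days in limma (811 at an unadjusted p under 0.05, against 814 with all arrays), while Cyp2b10 was at 3.49, Grk6 at -3.52 and Sod1 at -1.54. With the signals as deposited the unadjusted counts were 346 higher and 122 lower, against 85 and 729 with centring. Grk6 and Fmnl1 were among the genes used to split the arrays into sets.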

How the results depend on the processing

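Counts below are genes past an adjusted p of 0.05 in limma. In the pooled comparison, against 5 higher and 37 lower, the signals as deposited gave 9 and 99, no filter 8 and 23, array weights 30 and 357, all 88 arrays in 12 group means 23 and 134, and quantile normalization 22 higher. Lower genes numbered 9 with the array set as a block, 22 within the larger set, 19 with age as a number and 20 at 1.5-fold or more. Without the arrays that stood apart, an alternative chosen after seeing the data, the counts were 15 and 225, and with 21-day probucol replicate 3 removed too 11 and 174. Without the 21-, 31- or 43-day hearts they were 13 and 240, 3 and 0, or 3 and 1. Within the smaller set, which holds 1 probucol array, they were 0 and 0 (280 and 69 at an unadjusted p under 0.05), and there Klf13 (0.30), Actb (1.33), Mgst3 (0.20), Mettl26 (0.26), Aqp1 (0.15), Car8 (0.051) and Ets1 (0.068) turned positive, values that rest on that 1 array and are no measure of direction. With a replicate block over 8 same-numbered pairs the counts were 1 and 0 (198 and 390 at an unadjusted p under 0.05). Same-numbered arrays correlated at -0.11 to 0.0871 and 0 of 8 matched their own number best, so they share only a number. Leaving out 1 array gave 2 to 8 higher and 4 to 91 lower. The cause of these shifts was not tested.

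Against 8 genes at 21 days, the larger set gave 21 and leaving out 1 array 1 to 25. The signals as deposited gave 0 (54 higher and 325 lower at an unadjusted p under 0.05, against 191 and 92 with centring). Against 138 at 31 days, as deposited gave 21, quantile normalization 56, no filter 91, array weights 852, the Gapdh ratio as covariate 217, the set block 36, the larger set 15, without the arrays that stood apart 479, and leaving out 1 array 23 to 140. Against 4 at 43 days these were 8 as deposited, 10 with quantile normalization, 2 in the upper 40%, 45 with array weights, 31 without the arrays that stood apart, and 3 to 30 leaving out 1 array.

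The F test over ages, 0 in the main analysis, called 13 genes in the upper 40%, 45 with array weights, 12 with the Gapdh covariate, 28 without the arrays that stood apart, and 0 to 13 leaving out 1 array. Against 21 genes between 31 and 21 days, as deposited gave 0 (468 at an unadjusted p under 0.05), quantile normalization 4, no filter 13, the mean of probe sets 6, no trend 6, array weights 165, the Gapdh covariate 52, the sex-linked covariate 41, the set block 2, the larger set 0 (447 at an unadjusted p under 0.05), without the arrays that stood apart 80, and leaving out 1 array 0 to 26. For this difference between ages, the unadjusted counts as deposited were 346 higher and 122 lower, against 85 and 729 with centring. The count that differed between genotypes stayed within 1.5 times of 1030 under the alternatives run.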
